A study of Mus musculus with 6 samples.

Results

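Myelin genes were followed in single nuclei from the cerebellum of SCA1 and wild-type mice. The set was a fixed list of 9 genes (*Mog*, *Mbp*, *Mobp*, *Mag*, *Cnp*, *Cldn11*, *Mal*, *Trf* and *Ugt8a*) among the 32286 genes of the count tables, and all 9 were found in each of the 6 tables. The genes were taken by name. SCA1 mice were *Pcp2-ATXN1[82Q]* transgenic animals, in which the Purkinje cell promoter *Pcp2* drives a human *ATXN1* with an expanded CAG repeat. That promoter is used to keep expression of the transgene to Purkinje cells, so oligodendrocytes of these mice are not a model of mutant *ATXN1* within the oligodendrocyte itself. Controls were wild-type (WT) littermates of matched sex, and the line is kept on a C57BL/6 background. All mice were 12 weeks old, an age at which the study describes an early stage of disease, and the question was how cells that do not express the transgene respond to Purkinje cells that do. There were 3 SCA1 and 3 WT mice, with 1 library of nuclei from the whole cerebellum per mouse.

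Myelin is the membrane that oligodendrocytes wrap around axons, where it insulates them and lets impulses jump between the gaps. It is built from a small number of very abundant proteins and from lipids rich in galactose and cholesterol, so mature oligodendrocytes devote much of their transcription to a few genes. *Mbp* (myelin basic protein) holds the inner faces of the membrane together, and *Mobp* encodes another basic protein of compact myelin. *Mog* is a glycoprotein of the outermost surface of the sheath, and *Mag* is an adhesion molecule of its innermost layer, which faces the axon. *Cnp* encodes a cyclic nucleotide phosphodiesterase that keeps cytoplasmic channels open within the sheath. *Cldn11* forms the tight junctions between myelin layers, and *Mal* is a proteolipid of membrane rafts that takes part in sorting proteins to the sheath. *Trf* encodes transferrin, the iron carrier, and *Ugt8a* encodes the enzyme that makes galactosylceramide, the main galactolipid of myelin.

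The genes lie apart from each other in the genome (GRCm38, GENCODE M21). *Mog* spans chr17:37010743-37023398 on the minus strand and *Mag* spans chr7:30899176-30914873 on the minus strand. *Mobp* lies at chr9:120149707-120181484 on the plus strand and *Trf* at chr9:103204001-103230444 on the minus strand. *Cldn11* lies at chr3:31149920-31164324 on the plus strand and *Ugt8a* at chr3:125865271-125938619 on the minus strand. *Mal* spans chr2:127633226-127656695 on the minus strand. *Cnp* spans chr11:100574904-100591729 on the plus strand and overlaps *Dnajc7* on the opposite strand. Whether the counting used the strand is not given in the sources used here, so a share of the *Cnp* reads may belong to *Dnajc7*. *Dnajc7* itself had 109 to 129 UMIs per 1000000 (CPM) in oligodendrocytes and 79.4 to 104 in granule neurons. The 3′ part of *Mobp* overlaps the noncoding gene *Gm38642* on the same strand, which had at most 28.1 CPM in oligodendrocytes.

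RefSeq promoter windows of GRCm38.p6 were used for 7 of the 9 genes, and the 250 bases before the start of transcription are shown for 4 of them because these genes share their main cell type. Matches to CTGGNAC, where N is any base, and to ACAAAG, a core bound by SOX factors, are in capitals on either strand. CTGGNAC takes in the core bound by the oligodendrocyte factor MYRF and may be looser than it. The windows of *Mog* (chr17:37023399-37023648, minus strand), *Mobp* (chr9:120149492-120149741, plus strand), *Mag* (chr7:30914923-30915172, minus strand) and *Mal* (chr2:127656696-127656945, minus strand) read:
Mog: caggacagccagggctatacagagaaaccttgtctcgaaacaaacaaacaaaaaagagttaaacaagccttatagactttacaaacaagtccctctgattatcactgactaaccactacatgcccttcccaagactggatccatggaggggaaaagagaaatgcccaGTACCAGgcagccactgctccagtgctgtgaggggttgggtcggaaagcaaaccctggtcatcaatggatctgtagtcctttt
Mobp: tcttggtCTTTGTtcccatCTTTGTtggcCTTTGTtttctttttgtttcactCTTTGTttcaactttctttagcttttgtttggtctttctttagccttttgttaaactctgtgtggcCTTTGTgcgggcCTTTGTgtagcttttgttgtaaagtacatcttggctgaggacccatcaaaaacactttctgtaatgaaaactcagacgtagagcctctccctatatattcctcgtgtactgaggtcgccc
Mag: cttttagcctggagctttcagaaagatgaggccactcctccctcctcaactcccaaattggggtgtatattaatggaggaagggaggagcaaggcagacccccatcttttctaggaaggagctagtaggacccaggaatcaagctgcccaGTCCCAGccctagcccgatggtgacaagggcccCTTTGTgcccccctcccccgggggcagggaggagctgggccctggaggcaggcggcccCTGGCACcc
Mal: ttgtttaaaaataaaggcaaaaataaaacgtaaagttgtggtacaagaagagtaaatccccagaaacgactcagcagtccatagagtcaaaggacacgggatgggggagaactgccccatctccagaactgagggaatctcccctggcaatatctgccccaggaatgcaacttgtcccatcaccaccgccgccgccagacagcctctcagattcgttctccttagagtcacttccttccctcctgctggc
The *Mog* window held 1 match to CTGGNAC and the *Mag* window held 2, with 1 to ACAAAG between them. The *Mobp* window held 6 matches to ACAAAG and 0 to CTGGNAC, and the *Mal* window held neither. Of the windows not shown, that of *Cnp* held 2 matches to CTGGNAC and 1 to ACAAAG, and those of *Cldn11* and *Ugt8a* held neither. Among 32851 windows of this length, with 1 chromosome left out, 16.1% held CTGGNAC and 16.5% held ACAAAG, so a match is common and by itself marks no site.

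The tables held 45473 nuclei in all, 10897, 7215 and 6834 of SCA1 and 10463, 6710 and 3354 of WT mice, each with a SingleR cell type label. Total UMIs per library ranged from 18916647 to 98366627 and the median per nucleus from 2246.5 in WT mouse 2 to 7253 in WT mouse 1. The labels name no batch, and library numbers were taken to place SCA1 mouse 1 and WT mouse 1 in 1 batch (batch 1) and the other 4 mice in another (batch 2). The oligodendrocyte label held 1384 nuclei, 357, 226 and 198 from SCA1 mice 1 to 3 and 352, 148 and 103 from WT mice 1 to 3. This was 3.10% ± 0.191 (SD, n = 3) of all nuclei in SCA1 and 2.88% ± 0.602 (SD, n = 3) in WT, a difference of 0.222 percentage points (two-sided exact permutation test, p = 0.8, where 3 against 3 mice cannot go below 0.1). WT mouse 2 was the lowest at 2.21%, and without it the difference was -0.116 percentage points. Granule neurons, which make no myelin, held 37532 nuclei. Library pairs shared between 7 and 44 barcodes, and 0 oligodendrocyte barcodes carried that label in more than 1 library.

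The oligodendrocyte label carried the markers of its type, with *Aspa*, an enzyme of mature oligodendrocytes that breaks down N-acetylaspartate, at 500 to 1003 CPM in the 6 mice, but it also took in a second kind of nucleus. A main cluster held 1299 of the nuclei. A second cluster of 74 nuclei (3.64% to 8.74% of the label in each mouse) carried markers of oligodendrocyte precursors, the dividing cells from which oligodendrocytes arise. Both were picked within each library, as the clusters with the most and the next most nuclei of this label. In SCA1 mice 1 and 3 and WT mouse 2 another label was the most common in the second cluster. Its marker values below pool the mice. *Pdgfra*, the receptor that defines precursors, was at 766 CPM in the second cluster and at 3.21 in the main cluster. *Cspg4* was at 323 against 5.16 and *Vcan* at 1862 against 6.17. Summed markers of the precursors ranged from 463 to 1222 CPM in the SCA1 oligodendrocyte label and from 560 to 2281 in the WT label, so results were also computed on the main cluster. Summed markers of Schwann cells, which myelinate peripheral nerves, were at most 0.780 CPM. Markers of granule neurons summed to 625 and 685 CPM in the oligodendrocytes of SCA1 mouse 1 and WT mouse 1 and to 181 to 346 in the other 4 mice.

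In oligodendrocytes the 9 genes together were at 7283 to 10375 CPM, and none of the 9 differed between SCA1 and WT beyond the spread between mice. Of the structural proteins of compact myelin, *Mbp* was at 2949, 3138 and 3839 CPM in SCA1 mice 1 to 3 and at 2623, 4135 and 3571 in WT mice 1 to 3. *Mobp* was at 1033, 1006 and 1388 CPM in SCA1 and at 922, 1423 and 1243 in WT. For both genes the highest and the lowest value of the 6 came from WT mice, and the groups overlapped throughout. The fitted log2 difference, SCA1 against WT, was -0.07 for *Mbp* (95% interval -0.79 to 0.65) and -0.08 for *Mobp* (-0.71 to 0.55).

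**Figure D1:**
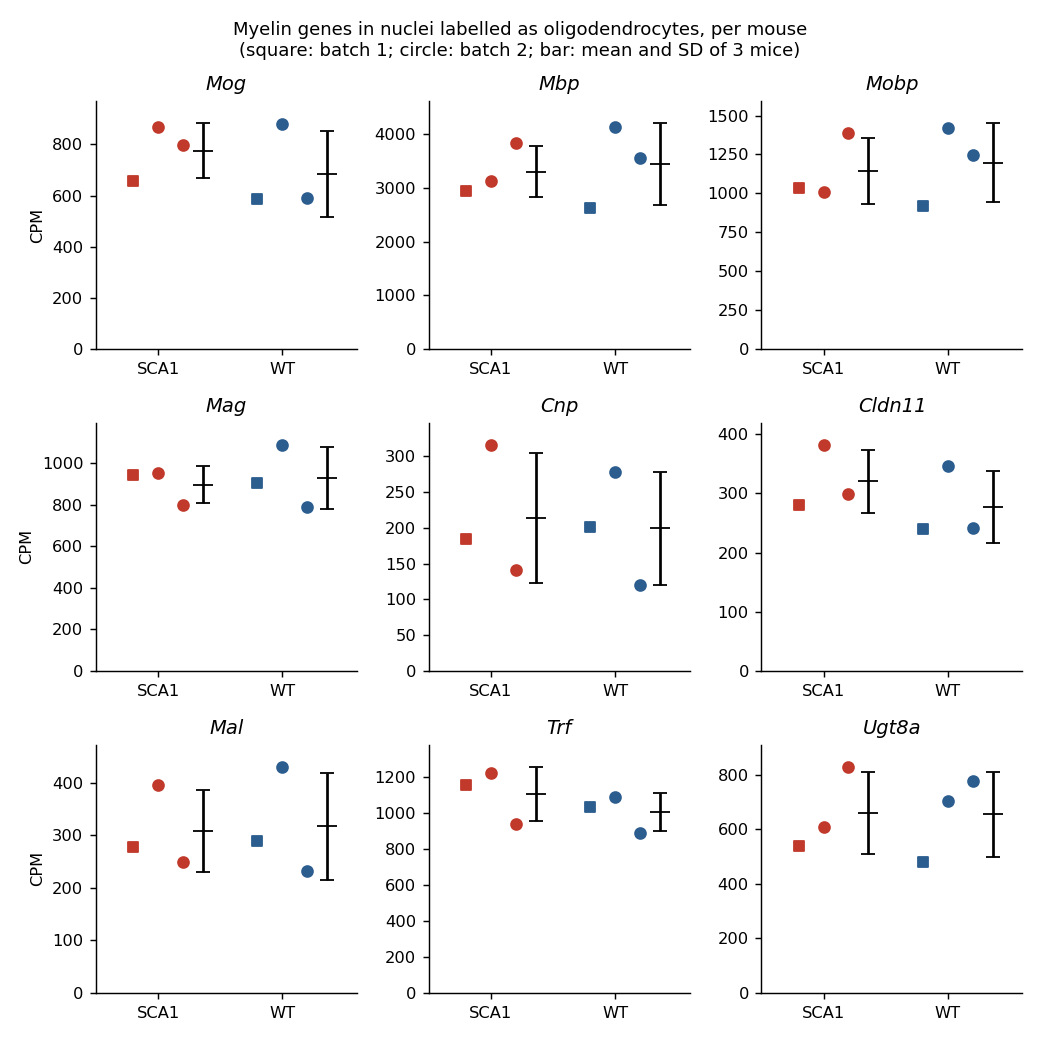
Level of the 9 myelin genes in nuclei labelled as oligodendrocytes, in CPM with a panel per gene and axes that start at 0; points are mice (squares batch 1, circles batch 2) and bars the mean and SD of 3 mice. The SCA1 and WT points of each gene overlap, as for *Mbp*, where SCA1 mice lie between 2949 and 3839 and WT mice between 2623 and 4135.

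The surface and adhesion proteins gave the same picture. *Mog* was at 659, 869 and 799 CPM in SCA1 and at 585, 878 and 590 in WT, and *Mag* was at 944, 950 and 796 in SCA1 and at 905, 1086 and 790 in WT. A WT mouse stood at each end of both series. The mean level of *Mog* was 776 ± 107 CPM (SD, n = 3) in SCA1 and 685 ± 168 in WT, with a log2 difference of 0.15 (-0.42 to 0.72), and that of *Mag* was 897 ± 87.1 and 927 ± 149, with a log2 difference of -0.08 (-0.66 to 0.49). *Cnp* varied most between mice, at 185, 315 and 141 CPM in SCA1 and at 201, 277 and 119 in WT, and its mice numbered 2 were the highest in both groups. Its log2 difference was 0.06 (-0.71 to 0.83).

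Of the junction and sorting proteins, *Cldn11* was at 281, 381 and 300 CPM in SCA1 and at 240, 347 and 242 in WT. SCA1 was the higher group on average, 321 ± 53.3 against 277 ± 61.1 CPM (SD, n = 3), but WT mouse 2 lay above SCA1 mice 1 and 3. The log2 difference of 0.18 was the largest of the 9 in size, with a 95% interval from -0.35 to 0.71. *Mal* was at 278, 396 and 249 CPM in SCA1 and at 289, 430 and 233 in WT, with a log2 difference of -0.07 (-0.69 to 0.54). The iron carrier *Trf* was at 1158, 1226 and 942 CPM in SCA1 and at 1038, 1093 and 889 in WT. SCA1 mouse 3 lay below WT mice 1 and 2, and the log2 difference was 0.10 (-0.48 to 0.68). The lipid enzyme *Ugt8a* was at 538, 609 and 827 CPM in SCA1 and at 480, 705 and 777 in WT, with a log2 difference of -0.01 (-0.59 to 0.58).

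By edgeR's quasi-likelihood test on UMIs summed per mouse, with batch as a term and Benjamini-Hochberg adjustment over all genes, 0 of the 9 genes were called at an adjusted p of 0.05 in oligodendrocytes, where 0.00917% of the 10900 genes tested were called. The unadjusted p-values of the 9 genes ran from 0.462 for *Cldn11* to 0.979 for *Ugt8a*, and each adjusted p was 1.00 in that edgeR fit. At an unadjusted p of 0.05 there were 0 of the 9 genes and 88 of all genes. DESeq2 and limma-trend on the same sums also called 0 of the 9, where DESeq2 called 0.00917% of all genes and limma-trend called 0. At their widest the intervals reached -0.79 (*Mbp*) and 0.83 (*Cnp*) on the log2 scale, so differences of some size remain possible for each gene within its own interval. No member had all SCA1 mice above or all below the WT mice, a pattern that 1.87% and 1.69% of all genes showed. In the main cluster alone edgeR also called 0 of the 9, where 0.00962% of genes were called. The median log2 difference of the 9 genes was -0.01, that of all genes tested was -0.01, and 4 of the 9 were positive. Within batch 1 the SCA1 mouse was the higher for 7 of the 9 genes and within batch 2 the SCA1 mean was the higher for 4, and batch 1 holds 1 mouse of each genotype. *Mog*, *Cldn11* and *Trf* were the 3 higher in SCA1 in both batches, *Mog* by 1.13 and 1.14 times, *Cldn11* by 1.17 and 1.16 times and *Trf* by 1.12 and 1.09 times. With each mouse left out in turn the log2 difference ran from 0.0219 to 0.32 for *Mog*, from 0.0720 to 0.33 for *Cldn11* and from 0.0329 to 0.19 for *Trf*.

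A test that takes every nucleus as a replicate, with the tools that the study's methods describe (scran normalisation and limma-trend, genotype and batch as terms), gave one call among the 9. It was run on the 1384 nuclei with the oligodendrocyte label, while the study also asked that a nucleus's Seurat cluster match its label, so the nuclei may differ from those of the study. *Cldn11* was higher in SCA1 by 0.20 on the log2 scale (adjusted p = 0.0365 by limma-trend on nuclei), *Trf* by 0.20 (adjusted p = 0.0623) and *Mog* by 0.18 (adjusted p = 0.123), against 0.705% of the 21551 genes called. In the main cluster alone, chosen after the data were seen, *Trf* (0.19, adjusted p = 0.0315) and *Cldn11* (0.19, adjusted p = 0.0417) were called among 0.791% of 21116 genes by the same limma-trend test. Nuclei of 1 mouse share their library, and the test over mice called neither gene. The study itself reports *Trf*, *Mog* and *Cldn11* as increased in SCA1 oligodendrocytes of these mice, by limma-trend on its own choice of nuclei.

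Other genes of the myelin programme were read from lists in the same fit. By edgeR 0 genes of any list were called in either direction, with 0 at an unadjusted p under 0.05. Over all 10900 genes of that fit 0.00917% were called, so the lack of calls says little about the lists. Of 24 other proteins of the sheath, 24 were tested and their median log2 difference was -0.06. The small heat shock protein *Cryab* had the highest value (0.35, 167 ± 92.7 CPM in SCA1 and 132 ± 38.5 in WT, SD, n = 3) and *Ninj2* the lowest (-0.41, 378 ± 122 and 519 ± 163). Of 25 genes of myelin lipid synthesis and turnover, 25 were tested and the median was -0.09, with *Degs1*, a desaturase of ceramide synthesis, at 0.38 and *Smpd1*, the acid sphingomyelinase, at -0.42. Of 14 transcription factors of the lineage 13 were tested, with a median of -0.09 (5 positive and 8 negative), which was 0.05 in the main cluster alone (8 positive and 5 negative). Among these *Olig1* was at 0.12, and *Myrf*, which switches on the myelin genes in maturing oligodendrocytes, was at -0.31 (140 ± 9.88 CPM in SCA1 and 186 ± 79.1 in WT).

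Of 12 genes that handle iron alongside transferrin 8 were tested and the median log2 difference was 0.10. *Ireb2*, which senses cellular iron, had 0.25. Of 12 genes of precursors and differentiating oligodendrocytes 11 were tested, with a median of -0.25 and values from -0.57 for *Vcan* to 0.61 for *Gpr17*. Their median was 0.11 over the 6 that could be tested in the main cluster alone, and the number of precursor-like nuclei in the label differed between mice (10 to 16 in SCA1, 6 to 20 in WT). Of 6 genes of peripheral myelin 2 were tested, *Pmp22* at 0.11 and *Mpzl1* at -0.17. The median over all genes tested was -0.01.

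UMIs of the myelin genes were also found in nuclei of other labels, most of all in both mice of batch 1. The study's methods describe a higher debris threshold, 3000 UMIs, for its first sequencing run alone, without naming the samples. The smallest nucleus kept had 3890 (SCA1) and 3932 (WT) UMIs in batch 1, and 1000 to 1739 by mouse in batch 2. Whether this difference in filtering bears on the levels below was not tested. In granule neurons the 9 genes together were at 995, 529 and 211 CPM in SCA1 mice 1 to 3 and at 1125, 247 and 202 in WT mice 1 to 3. Relative to oligodendrocytes of the same mouse this was 12.4%, 5.95% and 2.27% in SCA1 and 15.5%, 2.38% and 2.39% in WT. Mice numbered 1 were the highest of each group, and SCA1 mouse 2 followed them. Because granule neurons outnumber oligodendrocytes, they held 63.5% and 67.6% of all myelin gene UMIs in SCA1 mouse 1 and WT mouse 1, where oligodendrocyte nuclei held 21.8% and 17.7%. In the other 4 mice oligodendrocyte nuclei held 37.2% to 57.7%.

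**Figure D2:**
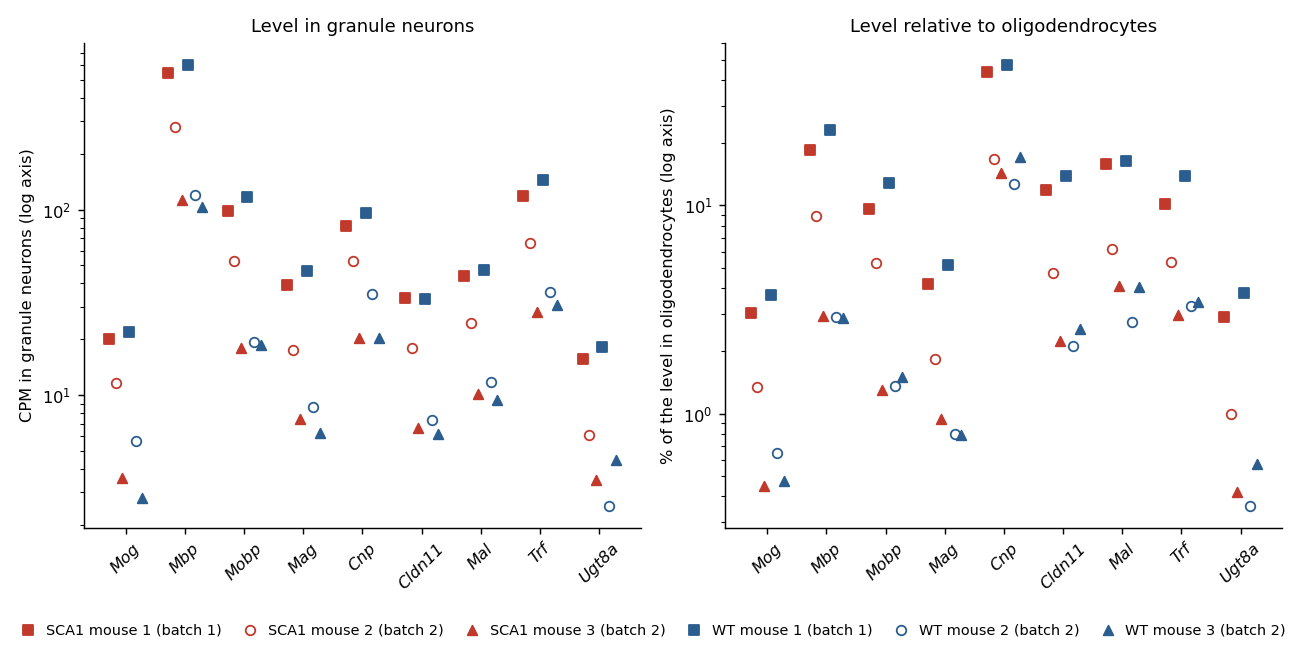
Level of the 9 myelin genes in granule neurons, in CPM (left, log axis) and as a percentage of the level in oligodendrocytes of the same mouse (right, log axis), with 1 point per mouse. The mice of batch 1 (squares) are the highest for each gene, as for *Mbp* at 544 and 602 CPM against 103 to 280 in batch 2.

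Both mice of batch 1 were above the other 4 for each gene. *Mbp* was at 544, 280 and 113 CPM in SCA1 and at 602, 120 and 103 in WT, and *Mog* was at 20.1, 11.6 and 3.59 in SCA1 and at 21.8, 5.68 and 2.80 in WT. *Cnp* was at 81.1, 52.6 and 20.2 CPM in SCA1 and at 95.2, 35.3 and 20.4 in WT. WT mouse 1 was the highest for 8 of the 9 genes and SCA1 mouse 1 for *Cldn11* (33.3 against 33.1 CPM), and SCA1 mouse 2 came next for all 9. The 9 log2 differences, SCA1 against WT, lay between 0.12 for *Ugt8a* and 0.49 for *Cldn11* (95% interval -0.28 to 1.27; 0.0322 without SCA1 mouse 2 and up to 0.77 with another mouse left out), with unadjusted p-values from 0.173 to 0.713 and each adjusted p at 1.00 in the edgeR fit. None of the 9 was called, where 0.00566% of 17656 genes were called, and 0 of the 9 and 313 of all genes had an unadjusted p under 0.05 in that edgeR fit, while DESeq2 called 0 of the 9. The groups overlapped for each of the 9, where 1.5% of all genes had all SCA1 mice above and 1.7% all below the WT mice. The median of the 9 was 0.37, against -0.00 over all genes tested, and it was -0.10 without SCA1 mouse 2. Within batch 1 the SCA1 mouse was the higher for 1 of the 9 genes, and within batch 2 the SCA1 mean was the higher for 9, with SCA1 mouse 2 above the other 3 mice for each gene.

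The excess over the other mice was spread across the granule neurons. In SCA1 mouse 1 and WT mouse 1, 0.718% and 0.259% of granule neurons had no UMI of any of the 9 genes, where an even spread in proportion to depth would leave 0.229% and 0.0846%. In the other mice 17.8%, 33.9%, 60.5% and 34.0% had none, against 11.9%, 28.5%, 56.8% and 29.0% for an even spread. The median granule neuron had 0.875 and 1.05 myelin gene UMIs per 1000 in mice numbered 1 and at most 0.389 in the others, and the median oligodendrocyte had 7.58 to 10.6. The share of nuclei with a UMI of one gene shows the same gap. *Mog* was found in 91.9% ± 2.55 of SCA1 oligodendrocytes and 86.9% ± 5.66 of WT oligodendrocytes (SD, n = 3), and in 6.56% ± 5.36 and 5.87% ± 7.49 of granule neurons. With each nucleus thinned to 1000 UMIs the shares were 52.0% ± 4.64 and 48.1% ± 6.28 in oligodendrocytes and 1.18% ± 0.795 and 1.06% ± 1.05 in granule neurons. Median depths were similar, 6453 UMIs in oligodendrocytes and 5923 in granule neurons.

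The mixture of myelin genes differed between the cell types. *Mbp* made up 48.7% to 54.7% of the myelin gene UMIs in granule neurons of the 6 mice and 35.3% to 42.2% of those in oligodendrocytes. *Cnp* made up 8.15% to 14.3% in granule neurons and 1.41% to 3.54% in oligodendrocytes. *Mog* went the other way, with 1.39% to 2.30% in granule neurons and 6.98% to 9.77% in oligodendrocytes, as did *Mag* (3.09% to 4.14% and 8.58% to 12.4%), *Mobp* (7.81% to 10.4% and 11.3% to 15.0%) and *Ugt8a* (1.02% to 2.22% and 6.59% to 9.19%). The ranges of these 6 genes did not overlap, while those of *Trf* (11.9% to 15.1% and 10.1% to 14.4%), *Cldn11* (2.94% to 3.41% and 2.87% to 4.29%) and *Mal* (4.19% to 4.84% and 2.69% to 4.46%) did. *Cnp* in granule neurons was therefore 12.7% to 47.4% of its own level in oligodendrocytes, and *Mog* 0.449% to 3.72%. In the larger other labels the shares of *Cnp* and *Mog* were closer to those of granule neurons. With the mice pooled, *Cnp* made up 8.67% in granule neurons, 8.79% in the interneuron label Neuron.Gad1Gad2.Pvalb-Nefh, 8.93% in Neuron.Slc17a6.Nrgn and 10.6% in the astrocyte label Gja1.Htra1. *Mog* made up 1.97%, 2.73%, 2.14% and 1.48% there. In the largest of the other labels, Astrocyte.Gja.Slc1a3, *Cnp* made up 10.0% and *Mog* 1.28%, but *Mbp* made up 40.4% and *Trf* 29.5%, so its mixture differed from that of granule neurons in these genes. What separates the mixture from that of oligodendrocytes was not tested.

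The difference between the genotype effect in oligodendrocytes and that in granule neurons was tested with mouse as a term. The 9 differences lay between -0.51 for *Mobp* and 0.04 for *Cnp*, with standard errors from 0.53 to 0.95 and edgeR p-values from 0.582 to 0.986. The edgeR interaction test called 0 of the 9 genes and 0% of 16100 genes, with 0 of the 9 and 161 of all genes at an unadjusted p under 0.05. In the sum of all nuclei of a mouse, which does not rest on the labels, the log2 differences lay between 0.09 for *Mag* and 0.41 for *Cldn11*, with edgeR p-values from 0.102 to 0.719. Among the 19625 genes tested there 0.0051% were called and none of the 9, with 0 of the 9 and 385 of all genes at an unadjusted p under 0.05 by edgeR. The groups overlapped for each of the 9 there as well, where 1.93% of all genes had all SCA1 mice above and 1.94% all below.

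Beyond oligodendrocytes, 6 of the 9 genes stood above the granule neuron level of the same mouse in a label in 6 of 6 mice, which is given here as a description with no test. The share of all genes that do so in some label was not computed, so this count says nothing particular about the myelin genes. *Mal* stood out in labels named for endothelial cells, which line the vessels. In the label Endothelial_Stalk.Flt1.Lrg1 (89 nuclei) it was at 283, 136 and 189 CPM in SCA1 and at 369, 428 and 226 in WT, 5.55 to 36.1 times the granule neuron level. It was also above granule neurons in 6 of 6 mice in Endothelial_Stalk.Flt1.Car4 (22 nuclei, 1 to 9 a mouse) and in 4 of 4 in Endothelial_Stalk.Flt1.Mgp (25 nuclei). The mean of *Mal* over mice in Endothelial_Stalk.Flt1.Car4 was 342 CPM against 313 in oligodendrocytes, while the median was 277 against 284, and 2 of the mice have 1 nucleus each in that mean. These 3 labels held high levels of the endothelial genes *Flt1* (3403 to 4797 CPM) and *Cldn5* (1307 to 1560 CPM), and also of *Rgs5* (1456 to 2326 CPM) and *Pdgfrb* (106 to 281 CPM), which mark the mural cells around vessels. Which of these cells carries *Mal* was not tested. The median level of *Mal* in Endothelial_Stalk.Flt1.Lrg1 was 98.2% of that in oligodendrocytes of the same mouse.

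*Cldn11* stood out in the label Endothelial_Tip.Dcn.Nnat (242 nuclei), at 127, 189 and 177 CPM in SCA1 and at 81.8, 119 and 41.7 in WT. This was 2.47 to 26.4 times the granule neuron level. This label held markers of fibroblasts (*Dcn* at 413 and *Col1a2* at 346 CPM) and the glial *Slc1a3* at 582 CPM. Of the endothelial markers *Cldn5* was at 1.32 and *Pecam1* at 2.20, while *Flt1* was at 101 and *Slco1a4* at 66.9 CPM. The SCA1 mice were all above the WT mice there, as were 2.89% of the genes tested in this label, with a log2 difference of 1.03 (SE 0.38, unadjusted p = 0.0191, adjusted p = 1.00 by edgeR). *Trf* stood out in Bergmann glia, the radial astrocytes beside Purkinje cells (label Astrocyte.Gja.Slc1a3, 1243 nuclei), at 223, 178 and 121 CPM in SCA1 and at 277, 214 and 244 in WT. The log2 difference of *Trf* in Bergmann glia was -0.57 (SE 0.24, unadjusted p = 0.0337, adjusted p = 1.00 by edgeR). In unscaled CPM SCA1 mouse 1 lay above WT mouse 2 (223 against 214). Their factors by TMM, the scaling of libraries in the fit, were 1.11 and 0.968, which reverses this order. On that scale, used for the separation of *Cldn11*, all SCA1 mice lie below the WT mice. The share of all genes that do so was not computed for Bergmann glia. *Trf* was also above granule neurons in microglia in 6 of 6 mice, where the microglial marker *C1qa* was at 511 CPM, at 168 to 227 CPM in SCA1 and at 203 to 269 in WT, with 8 to 32 nuclei a mouse and no test. *Cnp* exceeded granule neurons by less, 1.02 to 3.29 times in microglia and 1.19 to 2.31 times in the astrocyte label Gja1.Htra1, and *Mobp* 1.01 to 1.38 times in Gja1.Htra1. Of the 61 tests of a member in the 11 further labels with at least 10 nuclei in each mouse, 0 were called, these 2 alone had an unadjusted p under 0.05, and 0% of the genes were called in either label by edgeR. DESeq2 and limma-trend also called 0 of the 61, with 3 and 5 at an unadjusted p under 0.05. By edgeR that number was 12 of 58 without SCA1 mouse 1 and 12 of 58 without WT mouse 1, and both fits rest on the same mice of batch 2. It was 1 to 4 with another mouse left out and 8 of 99 with no filter on low counts, and 0 were called in each. The share of all genes at that unadjusted p in these labels is not given here, so these counts show no excess of the members.

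**Figure D3:**
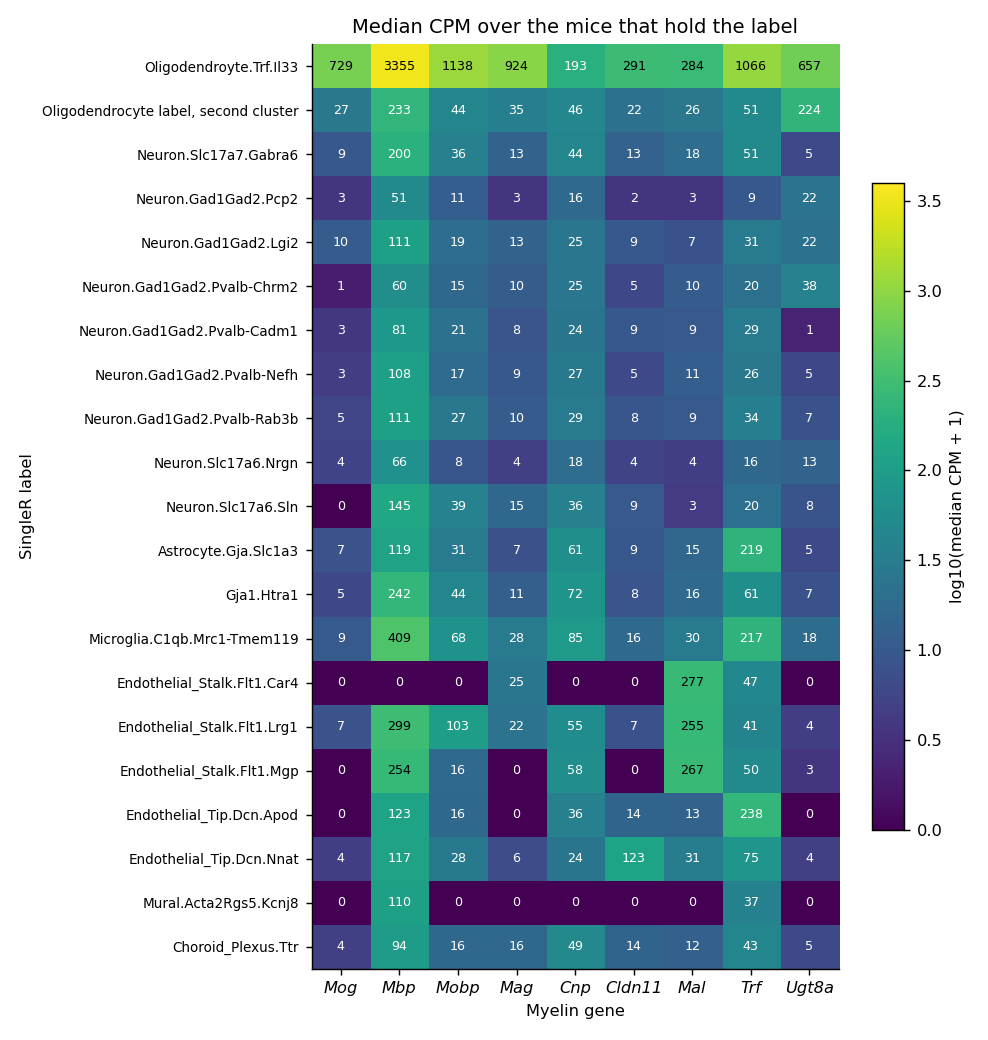
Level of each myelin gene in the 20 cell type labels with at least 20 nuclei and in the precursor-like second cluster, given as the median over the mice that hold the label in CPM, with colour on a log10 scale. Of the labels plotted, oligodendrocytes have the highest median for each gene, *Mal* comes close to it in the Endothelial_Stalk labels, and *Cldn11* stands out in Endothelial_Tip.Dcn.Nnat.

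*Ugt8a* was above the granule neuron level in 6 of 6 mice in Purkinje cells (label Neuron.Gad1Gad2.Pcp2, 292 nuclei), at 22.1, 22.2 and 26.3 CPM in SCA1 and at 23.5, 15.7 and 14.4 in WT. The ratio to granule neurons was 1.28 to 7.56. In the interneuron label Neuron.Gad1Gad2.Pvalb-Chrm2 (263 nuclei) it was at 38.0, 84.3 and 38.9 CPM in SCA1 and at 51.0, 33.6 and 14.3 in WT, 2.42 to 13.8 times granule neurons. These levels stayed far under the 480 to 827 CPM of oligodendrocytes. The other 8 genes were lower in Purkinje cells than in granule neurons in 6 of 6 mice, and the 9 together were at 0.21 to 0.32 times the granule neuron level, in nuclei with a median of 36466.5 UMIs against 5923.

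The myelin genes also differed among groups of nuclei of the oligodendrocyte lineage, where the few nuclei allow values with counting intervals and no test. In the precursor-like second cluster *Ugt8a* was at 234, 216 and 238 CPM in SCA1 and at 193, 231 and 126 in WT, 10.5 to 91.4 times the granule neuron level and under the oligodendrocyte level in each mouse. The other 8 genes exceeded granule neurons in 2 to 4 of the 6 mice, but the cluster is small: 3 UMIs make 173 CPM in WT mouse 2, with 6 nuclei, and 23.1 and 23.7 CPM in SCA1 mouse 3 and WT mouse 3, where *Mog* in granule neurons was at 3.59 and 2.80. At this depth these counts of mice cannot be compared between genes. With the mice pooled, *Mbp* was at 399 CPM (exact Poisson 95% interval 356 to 445) in this cluster, against 398 in granule neurons and 3366 in the main cluster. Mouse by mouse *Mbp* in the second cluster was at 1013, 236 and 0 CPM in SCA1 and at 587, 231 and 47.4 in WT, against 544, 280 and 113 and 602, 120 and 103 in granule neurons, so the pooled values are close although the mice differ. For the 0 in SCA1 mouse 3 the exact Poisson 95% interval reaches up to 28.3 CPM. Pooled, *Mog* was at 39.4 CPM (26.8 to 55.9) in the second cluster against 14.6 in granule neurons, and *Mag* at 54.6 (39.5 to 73.6) against 29.1. Only 12.2% of these nuclei had a UMI of *Mog* and 21.6% one of *Mag*, and the intervals do not cover such clumping. By mouse *Mog* was at 45.4, 52.4 and 7.68 CPM in SCA1 and at 70.1, 0 and 0 in WT. *Mag* was at 121, 72.1 and 0 CPM in SCA1 and at 70.1, 0 and 0 in WT. For *Mobp*, *Cnp*, *Cldn11*, *Mal* and *Trf* the pooled interval held the granule neuron level.

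A label named for precursors, Polydendrocyte.Tnr.Tnr, held 12 nuclei with a mixed set of precursor markers. *Pdgfra* was at 13.8 CPM and *Cspg4* at 9.19 in this label, against 766 and 323 in the second cluster. *Vcan* at 482, *Lhfpl3* at 597 and *Gpr17* at 188 CPM were above their levels in the main cluster. *Bcas1* at 3799, *Enpp6* at 1029 and *Tcf7l2* at 3059 CPM, genes known from newly formed oligodendrocytes, were high. The myelin genes differed from each other in these nuclei. With the mice pooled, *Mbp* was at 4386 CPM (4113 to 4674), against 3366 in the main cluster, and *Ugt8a* at 726 (617 to 848), against 642. *Cnp* was at 138 CPM (93.0 to 197), against 210. *Cldn11* was at 271 CPM (206 to 350), *Mag* at 519 (428 to 624), *Mobp* at 312 (243 to 396) and *Mog* at 147 (101 to 207), and the last 3 were below their main cluster levels of 983, 1181 and 751. *Trf* was at 32.2 CPM (12.9 to 66.2) and *Mal* at 13.8 (2.84 to 40.3, from 3 UMIs), against 1165 and 319 in the main cluster. The pooled ratio to the main cluster was thus highest for *Mbp* and *Ugt8a* and lowest for *Trf* and *Mal*. By mouse *Mbp* was at 4341, 2239 and 6335 CPM in SCA1 mice 1 to 3 and at 3913 and 2815 in WT mice 1 and 3. In the main cluster of these mice it was at 3048, 3583 and 4191 and at 2798 and 4237, so the direction varied. *Ugt8a* was above the main cluster in the SCA1 mice and below it in WT mice 1 (442 against 506) and 3 (266 against 894). The intervals cover counting error only, and the nuclei came from 5 of the 6 mice.

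The label Oligodendrocyte.Trf.Klk6 held 13 nuclei, 8 of them from WT mouse 2. There *Mbp* was at 4689 CPM (4309 to 5093) and *Mobp* at 2044 (1796 to 2317), while *Cldn11* was at 117 (63.9 to 196) and *Mal* at 159 (95.4 to 248). *Cldn11* and *Mal* lay below their main cluster levels of 309 and 319, and *Mobp* above its level of 1181. In the main cluster of WT mouse 2 alone *Cldn11* was at 364, *Mal* at 450 and *Mobp* at 1489 CPM.

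**Figure D4:**
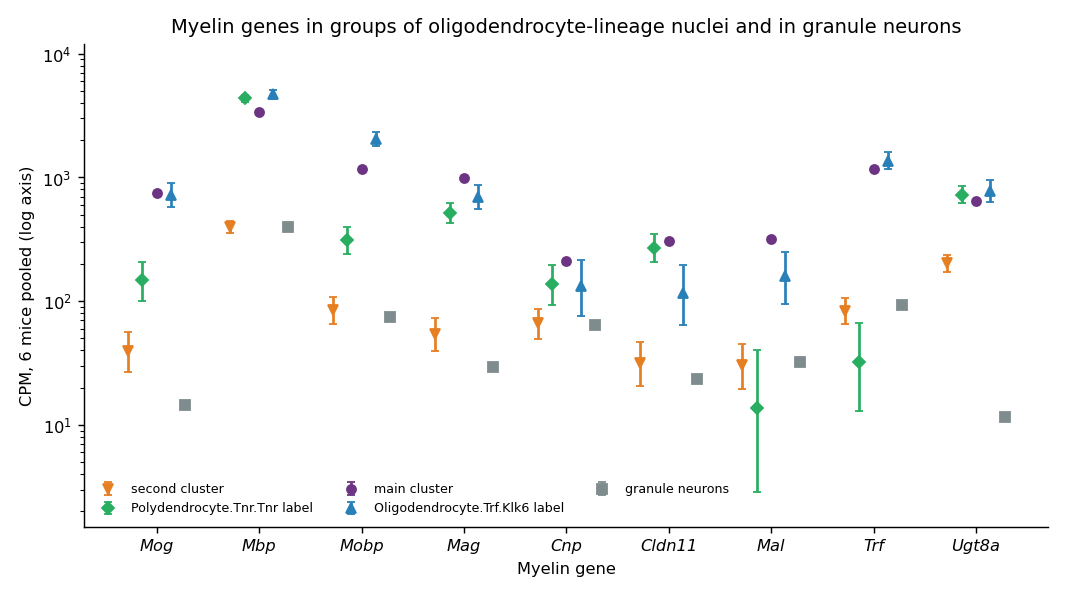
Level of each myelin gene in 4 groups of oligodendrocyte-lineage nuclei and in granule neurons, in CPM on a log axis with the mice pooled and exact Poisson 95% intervals. *Ugt8a* is at 202 in the second cluster against 11.6 in granule neurons, and *Trf* and *Mal* are at 32.2 and 13.8 in the label Polydendrocyte.Tnr.Tnr, against 1165 and 319 in the main cluster.

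Across the 20 labels with at least 20 nuclei, *Sec11c*, a subunit of the signal peptidase, was among the genes with profiles most like the mean of the 9 genes (Pearson's r = 0.891 over labels, on log2(CPM + 1), among 9732 genes). *Gm13905* had 0.886 and *BC051408* 0.883. The members themselves ranged from 0.56 for *Mal*, with its level in the Endothelial_Stalk labels, to 0.92 for *Mbp*. The labels share their libraries and differ in depth, and the oligodendrocyte label is the point on which each value mainly rests.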

How the data were processed

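Nuclei of 6 cerebella (3 SCA1 and 3 WT mice, 1 10x Genomics library each) were measured. Per the labels' processing notes and the study's methods, the authors aligned reads to a reference made of mm10 and human *ATXN1*, counted UMIs with Cell Ranger (versions 4.0.0, 5.0.1 and 6.0.1 are listed), introns included, removed debris and labelled nuclei with Seurat 4.0.4 and SingleR. The deposited tables hold raw UMI counts per gene and nucleus, and the deposited cell type files hold each nucleus's SingleR label and cluster. SingleR assigns labels by likeness to a reference, and no doublet caller was run here.

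UMI counts were summed per mouse and SingleR label. Levels are CPM, UMIs per 1000000 of the summed nuclei, with exact Poisson 95% intervals where mice are pooled; intervals cover counting error only. SCA1 and WT were compared with edgeR 4.0.16 (quasi-likelihood test, TMM, filterByExpr at its defaults of 10 for the count and 15 for the total, genotype and batch as terms) in R 4.3.3, p-values were adjusted over all genes tested, and genes were called at an adjusted p of at most 0.05. CPM of genes outside the 9 are scaled by TMM where a mean ± SD is given. Batch was inferred from the library numbers of the labels. Alternatives were the same fit without batch, with the replicate number as a block, with RLE size factors or library sizes alone, without the filter, with fewer nuclei or with each mouse left out, DESeq2 1.42.0 and limma 3.58.1 on the sums, and scran 1.30.0 with limma-trend on single nuclei. The scripts were tested on simulated counts. Labels were tested where each mouse had at least 10 nuclei, 13 of 24 labels. Oligodendrocytes were compared with other labels by values only, since a label is itself set by expression. The study's sources do not say that same-numbered mice were paired.

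Named are the 9 genes in each comparison, from each further list the genes called and those of the largest positive and negative log2 difference in oligodendrocytes, and the genes whose profile over labels was most like that of the 9; other genes are named as markers or because they overlap a member. Some genes that this rule names are not reported here. The 9 genes and the lists were chosen with earlier results of these data known. Positions are from GENCODE M21 (GRCm38), promoter windows from RefSeq (GRCm38.p6). For *Mbp* and *Trf* no window is shown.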

Additional observations from a re-analysis of the deposited data

How the results depend on the processing

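None of the 9 genes was called in granule neurons, in other labels, in all nuclei summed or in the interaction under any alternative, and in oligodendrocytes the test on single nuclei alone called any (1 gene, *Cldn11*, in the label, and 2 genes, *Cldn11* and *Trf*, in the main cluster). The alternatives with the main oligodendrocyte cluster only and with both oligodendrocyte labels summed were chosen after seeing the data. The alternative where label and cluster were the same keeps the precursor-like second cluster in SCA1 mouse 2 and in WT mice 1 and 3. It drops that cluster in the other mice, so the mix of nuclei changes unevenly. Genes called in oligodendrocytes numbered 1 (*Gm12160*), 0 with no batch term, 0 with library size only, 0 by limma-trend on sums, 0 with nuclei whose label and cluster were the same, 5 with no filter on low counts, and 0 to 1 with a mouse left out; without SCA1 mouse 2 and without WT mouse 2 there were 0. With the replicate number as a block, 1 gene was called in oligodendrocytes, 6 in granule neurons, 26 in all nuclei summed and 0 in the interaction, none of them a member. Same-numbered mice correlated by 0.747, 0.0881 and 0.608 in their deviations, and differently numbered mice by -0.732 to 0.159. The numbers were not taken as pairs because the study's sources name no pairing, and shared handling of same-numbered mice was not tested. The difference in oligodendrocyte share ranged from -0.116 (without WT mouse 2) to 0.464 percentage points with a mouse left out.

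In oligodendrocytes *Mog*, *Cldn11* and *Trf* stayed positive under each alternative, all of which use the same mice. Signs of the other 6 genes there, and of the genes below elsewhere, were not stable, and the cause was not tested. In the test on single nuclei *Mbp* (0.00854), *Mobp* (0.0144), *Mag* (0.0445), *Mal* (0.0422) and *Ugt8a* (0.0905) turned positive. *Ugt8a* in oligodendrocytes was 0.0262 with library size only, 0.0195 with no filter, 0.0392 where label and cluster were the same and 0.0275 with nuclei of at least 3000 UMIs. Without the batch term *Cnp* (-0.000644), *Trf* (-0.0173) and *Ugt8a* (-0.0459) turned negative in granule neurons. *Trf* in the interaction was 0.0359 with batch in place of mouse, 0.0654 with the replicate block and 0.0406 where label and cluster were the same. With a mouse left out, the oligodendrocyte ranges were -0.29 to 0.40 for *Cnp*, -0.16 to 0.0691 for *Mag*, -0.27 to 0.19 for *Mal*, -0.18 to 0.0745 for *Mbp*, -0.21 to 0.11 for *Mobp* and -0.15 to 0.16 for *Ugt8a*. In granule neurons they were -0.31 to 0.34 for *Cnp*, -0.0690 to 0.66 for *Mag*, -0.0370 to 0.62 for *Mal*, -0.00941 to 0.72 for *Mbp*, -0.12 to 0.80 for *Mobp*, -0.12 to 0.77 for *Mog*, -0.22 to 0.41 for *Trf* and -0.16 to 0.35 for *Ugt8a*, and in the granule neurons without SCA1 mouse 2 the median of the 9 was -0.10. In the interaction they were -1.05 to 0.42 for *Cldn11*, -0.52 to 0.53 for *Cnp*, -1.23 to 0.19 for *Mag*, -1.09 to 0.27 for *Mal*, -1.39 to 0.13 for *Mbp*, -1.47 to 0.19 for *Mobp*, -1.12 to 0.47 for *Mog*, -0.64 to 0.43 for *Trf* and -1.16 to 0.60 for *Ugt8a*. With 3 mice a group, and with 2 in batch 1, leaving out 1 mouse of batch 1 makes the other add nothing to the estimate.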
